A study of Sus scrofa with 4 samples.

Results

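Fibroblast growth factors (FGFs) are secreted proteins that bind, together with heparan sulfate chains, to 4 receptor tyrosine kinases, FGFR1 to FGFR4. Receptor activation runs through the adaptor FRS2 to the RAS and MAP kinase cascade and induces its own inhibitors. In the lung, FGF10 made by mesenchymal cells acts on a splice form of FGFR2 in the epithelium and drives branching, while FGF9 from epithelium and mesothelium acts back on mesenchymal receptors.

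The genes described here are 6 ligands (FGF1, FGF2, FGF7, FGF9, FGF10 and FGF18) and the 4 receptors. Members were chosen by gene name, and 9 of the 10 had a row among the 29263 genes of the count tables. FGF2 was listed only by its Ensembl identifier, ENSSSCG00000036213, and FGF7 was not matched and is not analysed here. All 9 passed the filter on low counts.

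Cells came from pig lung of the genotype LGR5-H2B-GFP knock-in. There, LGR5, a receptor for R-spondins, is reported by a green fluorescent histone fusion. Sorting gave a bright fraction (GFP-HI, 2 libraries) and a fraction without fluorescence (GFP-NEG, 2 libraries) of the same genotype, numbered as biological replicates 1 and 2. The protocol text covers adult and fetal lung together, and only the name of the authors' comparison table contains the word adult. That text also names antibodies against EPCAM and NGFR without saying whether a gate with them applied here.

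The GFP-HI libraries held 24200550 and 24689986 counts and the GFP-NEG libraries 6292253 and 7045652, so depth differed 3.67-fold between the groups and cannot be told apart from them. LGR5 was at 146 and 152 CPM (counts per 1000000 of the library total after edgeR's TMM scaling) in GFP-HI, whereas the GFP-NEG libraries had 1.55 and 0.76 CPM. The fibroblast markers fixed for the check summed to 81100 and 71300 CPM in GFP-HI, whereas GFP-NEG replicate 1 reached 25200 CPM and replicate 2 8910 CPM. The GFP-NEG replicates thus differed from each other in these markers, and the members and the called genes of the FGF pathway lists were also fitted with each library left out.

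FGF10, FGFR1 and FGFR2 rose in GFP-HI cells, by 10.7, 6.99 and 2.76 times. The other 6 measured members did not pass the threshold (adjusted p-value under 0.05 over 19682 tested genes, edgeR quasi-likelihood test with Benjamini-Hochberg adjustment). Of all tested genes, 8.35% were called higher and 27.6% lower in GFP-HI, beside 3 and 0 of the 9 members. The share called higher depended on mean level, with 0.144% under 2 CPM, 2.33% from 2 to 10 CPM and 14.7% from 10 to 100 CPM. The share called lower was 61%, 28.9% and 10.5% in the same ranges. The 3 called members had means between 10 and 100 CPM. Shares over all tested genes, also those given beside the lists below, mix these levels. With the replicate number as a block in the fit, 5 of the 9 were called higher, beside 8.67% of all tested genes. Only 2 of the 9 were called higher under upper-quartile scaling, library-size scaling or DESeq2, beside 5.5%, 4.51% and 5.6% of tested genes. The number was also 2 with a minimum of 1 CPM in 2 libraries (7.58%) and with GFP-HI thinned to the GFP-NEG depth (7.21%). The median log2 fold change (GFP-HI over GFP-NEG) was 0.92 over the 9 members and -0.25 over all tested genes. The median member was FGFR4, whose value ran from -0.04 to 4.13 with 1 library left out. Tested genes from 10 to 100 CPM had a median of 0.41. In sorted bulk cells, more cells of a type and more RNA per cell cannot be told apart.

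**Figure D1:**
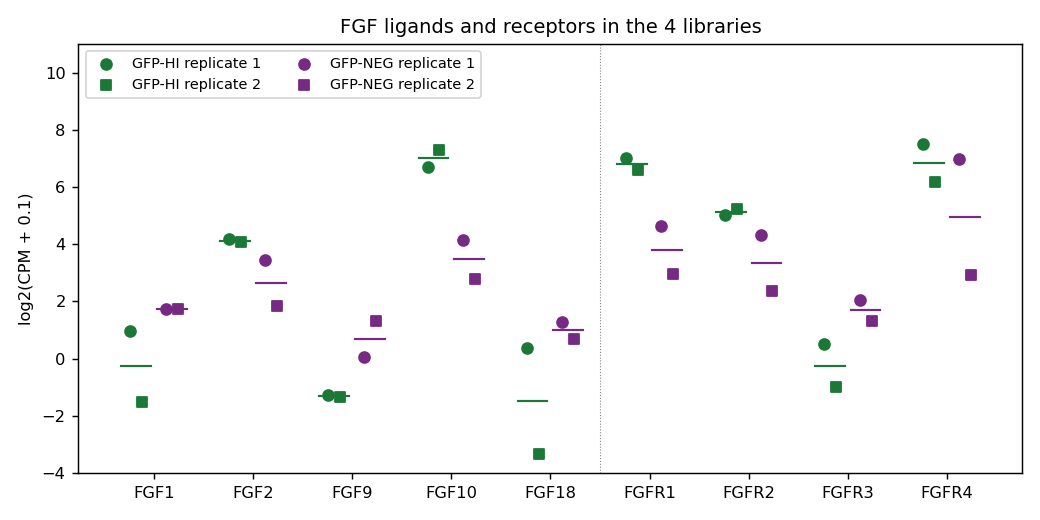
Level of each measured FGF ligand (left of the dotted line) and receptor (right) in the 4 libraries, as log2(CPM + 0.1). Circles are replicate 1, squares replicate 2, and short lines the group means on this scale. FGF10 and FGFR1 are higher in both GFP-HI libraries, whereas the FGFR4 libraries of the 2 groups overlap.

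FGF10, the mesenchymal ligand that drives lung branching, had 2267 and 3193 counts in the bright libraries and 114 and 63 in the negative libraries. This corresponded to 103 and 158 CPM in GFP-HI versus 17.7 and 6.84 CPM in GFP-NEG. Both GFP-HI libraries were far above both GFP-NEG libraries, and the gap between groups exceeded the gap within either. Mean levels were 130 ± 39.3 CPM for the bright and 12.3 ± 7.66 CPM for the negative cells (SD, n = 2 libraries per group). In edgeR the log2 fold change was 3.41 ± 0.58 (standard error), with an adjusted p of 2.9e-07. In log2 CPM the difference was 2.53 within replicate 1 and 4.5 within replicate 2. FGF10 passed the threshold under each of the 12 alternatives, with a log2 fold change of 4.29 without GFP-NEG replicate 1 and 2.84 without GFP-NEG replicate 2.

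FGF2, basic FGF, a mitogen for fibroblasts and endothelial cells, had 395 and 336 counts in the bright libraries and 69 and 32 in the negative libraries. Its levels were 17.9 and 16.7 CPM in GFP-HI versus 10.7 and 3.47 CPM in GFP-NEG. The GFP-HI libraries lay close together and above both GFP-NEG libraries, which were 1.58 apart in log2 CPM. The log2 fold change of 1.29 (standard error 0.64) was not past the threshold (adjusted p of 0.10, edgeR), but it was with the replicate number as a block (log2 fold change 1.47, adjusted p of 0.039). It was also past it without GFP-NEG replicate 1 (log2 fold change 2.35, adjusted p of 0.028). Without GFP-NEG replicate 2 the value was 0.65.

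FGF1, acidic FGF, which can bind every FGF receptor, had 41 and 5 counts in the bright libraries and 21 and 30 in the negative libraries. Its levels of 1.86 and 0.248 CPM in GFP-HI lay below the 3.25 and 3.26 CPM of GFP-NEG. The 2 GFP-HI libraries were themselves 2.37 apart in log2 CPM, more than the fitted difference of -1.62 (edgeR, adjusted p of 0.30).

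FGF9, the epithelial and mesothelial ligand, had 7 and 6 counts in the bright libraries and 6 and 22 in the negative libraries. It was at 0.317 and 0.297 CPM in GFP-HI versus 0.930 and 2.39 CPM in GFP-NEG, the lowest fitted fold change among the members (log2 -2.43, standard error 1.25, adjusted p of 0.12, edgeR). Of the mesothelial markers, only WT1 had a row, with 0 and 2 counts in the bright libraries and 0 and 24 in the negative libraries. GFP-NEG replicate 2 therefore held the most FGF9 and the most WT1 counts, and the part of mesothelial cells in the FGF9 values was not tested.

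FGF18, a ligand of the developing alveolar mesenchyme, had 26 counts in GFP-HI replicate 1 and 0 in GFP-HI replicate 2, where the floor of 3 counts equals 0.149 CPM. GFP-NEG had 15 and 14 counts, or 2.32 and 1.52 CPM, against 1.18 CPM in GFP-HI replicate 1. The log2 fold change of -1.68 was not past the threshold (adjusted p of 0.30, edgeR) and was -0.63 without GFP-HI replicate 2.

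FGF1, FGF9, FGF18 and FGFR3 were the members with few counts, and the fitted value was negative for all 4. Low genes in general had negative values: the median log2 fold change was -4.27 over the 4873 tested genes with a mean under 2 CPM and -0.94 over the 4802 genes between 2 and 10 CPM. In these bins 61.0% and 28.9% of genes were called lower in GFP-HI. Genes of 10 to 100 CPM had a median of 0.41. The deeper GFP-HI libraries held a count for 18752 and 18392 genes, and the shallower GFP-NEG libraries for 24120 and 25985. Both GFP-HI libraries were below both GFP-NEG libraries for 4 members (41.9% of all tested genes) and above both for 4 members (27.9% of all tested genes).

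**Figure D2:**
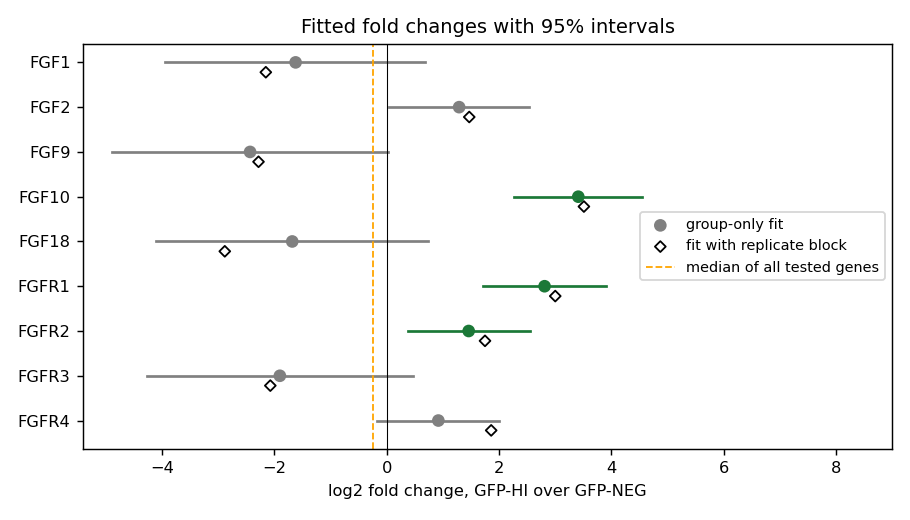
Log2 fold change (GFP-HI over GFP-NEG) of the 9 measured members, with bars for 95% intervals (from the standard error) from the group-only edgeR fit and open diamonds for the fit with the replicate block. The bars give little weight to a gene's own scatter. Green marks FGF10, FGFR1 and FGFR2, which passed the threshold, and the dashed line is the median of all tested genes (-0.25).

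Among the receptors, FGFR1, which in its mesenchymal splice form receives FGF9 and FGF2, had 2841 and 1928 counts in the bright libraries and 158 and 70 in the negative libraries. Its levels were 129 and 95.5 CPM in GFP-HI versus 24.5 and 7.60 CPM in GFP-NEG. The groups did not overlap, and the lower GFP-HI library was well above the higher GFP-NEG library. The means were 112 ± 23.4 CPM and 16.0 ± 11.9 CPM (SD, n = 2 in each group). In edgeR the log2 fold change was 2.81 ± 0.56 (standard error), with an adjusted p of 1.4e-05. Without GFP-NEG replicate 2 it was 2.15 and lost its call (adjusted p of 0.071), and without GFP-NEG replicate 1 it was 3.92.

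FGFR2, whose splice forms receive FGF10 in epithelium and other ligands in mesenchyme, had 710 and 747 counts in the bright libraries and 130 and 46 in the negative libraries. Gene counts do not separate the splice forms. Its levels were 32.2 and 37.0 CPM in GFP-HI versus 20.1 and 4.99 CPM in GFP-NEG. The GFP-HI values were nearly equal, and GFP-NEG replicate 1 was nearer to them than to its own partner. The log2 fold change of 1.46 (standard error 0.55) passed with an adjusted p of 0.026 in edgeR and missed the threshold under 8 of the 12 alternatives, among them DESeq2 (adjusted p of 0.095) and library-size scaling (0.12). In the authors' deposited table the adjusted p of FGFR2 is 0.0949, for a log2 fold change of 1.46.

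FGFR3, a receptor with roles in cartilage and alveolar septation, had 29 and 8 counts in the bright libraries and 26 and 22 in the negative libraries. It was at 1.31 and 0.396 CPM in GFP-HI versus 4.03 and 2.39 CPM in GFP-NEG. Both GFP-HI values were the lower ones, but the log2 fold change of -1.90 ± 1.21 (standard error) did not pass (adjusted p of 0.23, edgeR).

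FGFR4, which shares with FGFR3 a role in alveolar septation, had the most uneven values. It had 4034 and 1459 counts in GFP-HI libraries and 822 and 69 in GFP-NEG replicates 1 and 2. The levels were 183 and 72.3 CPM in GFP-HI versus 127 and 7.49 CPM in GFP-NEG, so that GFP-NEG replicate 1 lay between the GFP-HI libraries. The log2 fold change of 0.92 (95% interval from the standard error -0.17 to 2.0) did not pass with the group alone (adjusted p of 0.20, edgeR). This interval rests on the spread fitted over all genes, with little weight on FGFR4's own scatter. The GFP-NEG libraries were 4.06 apart in log2 CPM. With the replicate number as a block FGFR4 passed (log2 fold change 1.86, adjusted p of 0.020, edgeR). However, the difference in log2 CPM was 0.52 in replicate 1 and 3.25 in replicate 2. Leaving out GFP-NEG replicate 1 gave 4.13 (adjusted p of 2e-04), and leaving out GFP-NEG replicate 2 gave -0.04.

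**Figure D3:**
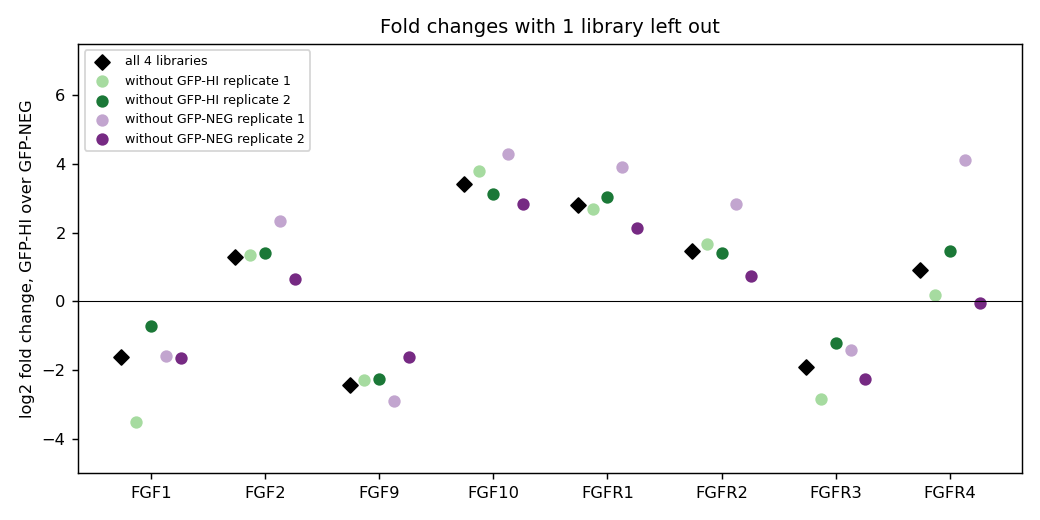
Log2 fold change of 8 members with all 4 libraries (black diamonds) and with 1 library left out (circles). FGF18 is not drawn because 1 of its fits rests on a library with 0 counts. FGF10 stays between 2.84 and 4.29, whereas FGFR4 runs from -0.04 to 4.13 according to which GFP-NEG library is left out.

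The makeup of receptor counts differed more between replicates than between groups for FGFR4. FGFR4 gave 53.0% (95% Wilson interval 51.9 to 54.1) and 35.2% (33.8 to 36.7) of the FGFR1 to FGFR4 counts in GFP-HI, and 72.4% (69.7 to 74.9) and 33.3% (27.3 to 40.0) in the GFP-NEG libraries. FGFR1 gave 37.3% and 46.5% in GFP-HI versus 13.9% and 33.8% in GFP-NEG, so its share was higher in GFP-HI in both replicates. FGFR3 gave 0.381% and 0.193% in GFP-HI versus 2.29% and 10.6% in GFP-NEG. These intervals cover counting error only. Counts were not divided by transcript length, so a share can be compared between libraries but not between receptors.

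**Figure D4:**
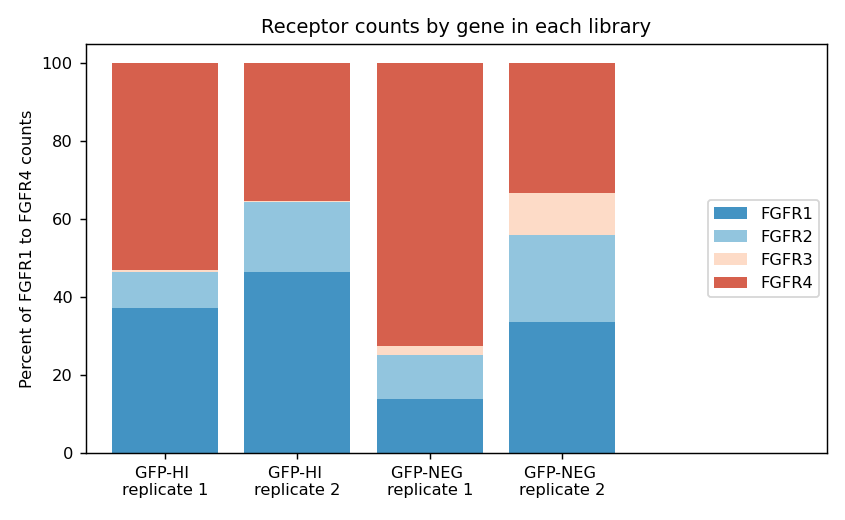
Percent of the summed FGFR1 to FGFR4 counts that came from each receptor gene, in each library. The FGFR4 share is 72.4% and 33.3% in replicates 1 and 2 of GFP-NEG, and the FGFR3 share is under 1% in GFP-HI but 2.29% and 10.6% in GFP-NEG; the shares are not corrected for length.

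Some of the cell type marker lists also differed between the groups. Of 8 fibroblast markers, 5 were called higher in GFP-HI and 0 lower. COL1A1, COL1A2 and COL3A1, which gave most of the fibroblast sum in each library, were not called. Of 6 endothelial markers, 6 were called lower (summed level 175 and 174 CPM in GFP-HI versus 1270 and 537 CPM in GFP-NEG). Immune markers were called lower for 4 of 6, with 196 and 331 CPM in GFP-HI versus 1130 and 1960 CPM in GFP-NEG. CD79A and CD68 were not called. Epithelial markers summed to 225 and 203 CPM in GFP-HI versus 512 and 127 CPM in GFP-NEG, with 1 of 6 called lower and none at 0. Smooth muscle and pericyte markers summed to 1640 and 2390 CPM in GFP-HI, and to 2500 and 361 CPM in replicates 1 and 2 of GFP-NEG. Of these 6 genes, 1 (CSPG4) was called higher and 3 (MYH11, DES and RGS5) lower, and ACTA2, which gave most of the sum in 3 of the 4 libraries, was not called. FGF2, FGF10, FGF18 and the 4 receptors were each higher in GFP-NEG replicate 1 than in replicate 2, as were the fibroblast, endothelial, epithelial and smooth muscle sums, whereas the immune sum was lower. The part of cell type makeup in the members' differences was not tested.

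Set against PDGFRA, a receptor that marks lung fibroblasts, FGF10 gave ratios that overlapped between the groups. There were 0.125 and 0.281 FGF10 counts for each PDGFRA count in GFP-HI versus 0.182 and 0.304 in GFP-NEG. Within replicates 1 and 2 the log2 ratio was lower in GFP-HI, with differences of -0.54 and -0.11. FGFR1 had 0.157 and 0.170 counts for each PDGFRA count in GFP-HI versus 0.252 and 0.338 in GFP-NEG. For FGF2 the ratio was 0.0218 and 0.0296 in GFP-HI versus 0.110 and 0.155 in GFP-NEG, lower in both GFP-HI libraries. FGFR2 gave 0.0391 and 0.0658 against 0.208 and 0.222. PDGFRA itself had a log2 fold change of 3.53, and LUM, DCN and FBLN1 had 3.96, 3.57 and 4.4. The other fibroblast markers COL1A1, COL1A2, COL3A1 and TCF21 had 1.88, 1.79, 2.16 and 1.74, below the 3.41 of FGF10. The ratios therefore depend on the marker used. PDGFRA was chosen for them after the values were seen, and they were not tested.

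The genes nearest to FGF10 in their pattern over the 4 libraries were PI16, EPDR1 and MEIS2, by Euclidean distance of log2 CPM centred on each gene's mean (0.14, 0.201 and 0.219 among 12770 genes with a symbol and a mean of at least 1 CPM). PI16, a marker of adventitial fibroblasts, was at 5690 and 10000.0 CPM in GFP-HI versus 1040.0 and 403 CPM in GFP-NEG. For FGF9, the member with the lowest fold change, the nearest genes were PIWIL2, MMS22L and GBX1, with distances of 0.0654, 0.113 and 0.135. With 4 libraries, many genes share a pattern, and the distance is a description.

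Of 16 other FGF genes, 14 had a row and 5 could be tested. FGF6, a ligand of muscle, was called lower in GFP-HI, though not without either GFP-HI library, and 0 were called higher (27.6% and 8.35% over all tested genes). FGF6 had 0 counts in both GFP-HI libraries and 5 and 30 in GFP-NEG, at least 5.2-fold lower when the lower GFP-NEG library (0.775 CPM) is set against the per-library floor of 3 counts (0.149 CPM). FGF12, FGF14, FGF21 and FGF22 had log2 fold changes of -0.58, -1.32, -1.61 and 0.77 and did not pass. The endocrine ligands FGF19 and FGF23 had 0 counts in GFP-HI and 3 and 10, and 4 and 0, in GFP-NEG. FGF3 had 0 counts in all 4 libraries.

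Of 9 genes for co-receptors and FGF-binding proteins, 5 were tested, with 2 called higher and 1 lower (8.35% and 27.6% over all tested genes). FLRT2 and FLRT3, membrane proteins that can bind FGF receptors, both rose by 1.62 in log2 terms (edgeR, adjusted p of 0.0086 and 0.033). FLRT2 was at 41.7 and 62.8 CPM in GFP-HI versus 22.5 and 11.5 CPM in GFP-NEG. FLRT2 lost its call under library size alone, without GFP-HI replicate 2 and without GFP-NEG replicate 2, and FLRT3 under 8 of 12 alternatives. FLRT1 fell by 2.96 in log2 terms (adjusted p of 0.033) but missed the threshold with the replicate block (adjusted p of 0.085), without either GFP-HI library and without GFP-NEG replicate 2 (-1.42, adjusted p of 0.74). FGFRL1, a decoy receptor without a kinase domain, and KLB, the co-receptor of endocrine FGFs with FGFR4, had values of -1.0 and -1.29 and did not pass (adjusted p of 0.40 and 0.32).

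Enzymes that build or trim heparan sulfate, the chain that holds FGFs on their receptors, had 4 of 10 genes called higher and 1 lower (8.35% and 27.6% over all tested genes), with a median log2 fold change of 0.59. SULF1, which removes sulfate groups from the chains outside the cell, was at 760.0 and 578 CPM in GFP-HI versus 66.2 and 36.5 CPM in GFP-NEG. The log2 fold change of 3.70 (standard error 0.76, adjusted p of 3.1e-05, edgeR) passed under each of the 12 alternatives. The chain polymerases EXT1 and EXT2 rose by 2.26 and 1.71 on the log2 scale, and the sulfotransferase HS2ST1 by 1.41. HS2ST1 missed the threshold under 7 alternatives, and EXT1 and EXT2 without GFP-NEG replicate 2 (EXT2 also without GFP-HI replicate 1). HS6ST2 had 3 and 0 counts in the bright libraries and 20 and 7 in the negative libraries (log2 value -4.61, adjusted p of 0.0049), and with the replicate block its adjusted p was 0.055. It also missed the threshold without either GFP-HI library. SULF2, the paralog of SULF1, had a log2 fold change of 0.76 and did not pass.

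In the intracellular relay, 0 of 17 tested genes were called higher and 1 lower (8.35% and 27.6% over all tested genes), with values from -1.44 to 1.21, a median log2 fold change of 0.26 and 14 above 0. FRS2, the adaptor that docks on FGF receptors, had a value of 0.84 (adjusted p of 0.21, edgeR), and GAB1, which it recruits, 1.21 (adjusted p of 0.055, 0.026 with the replicate block and 0.010 without GFP-NEG replicate 1). GRB2, an adaptor of many receptors, was at 33.7 and 21.7 CPM in GFP-HI versus 87.6 and 61.8 CPM in GFP-NEG. It fell by 1.44 in log2 terms (adjusted p of 0.020) and missed the threshold when any of the 4 libraries was left out. The kinases BRAF, MAP2K1, MAP2K2 and MAPK3 had values between 0.03 and 0.89 and did not pass.

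Of 15 tested genes listed as feedback regulators or targets of FGF signalling, 6 were called higher and 3 lower (8.35% and 27.6% over all tested genes), with a median log2 fold change of 1.07. Among all tested genes from 10 to 100 CPM, 14.7% were called higher and 10.5% lower. SPRED1 and SPRY2, inhibitors of the RAS to RAF step, rose by 2.08 and 1.98 (adjusted p of 5.8e-04 and 0.0018, edgeR). SPRED1 was at 79.3 and 94.8 CPM in GFP-HI versus 31.8 and 9.33 CPM in GFP-NEG. IL17RD, a membrane inhibitor of FGF signalling also called SEF, rose by 2.07, and ETV1, an ETS factor induced by FGFs, by 1.55. The other 2 called higher were SHISA2 (1.54) and CCND1 (1.49). ETV1, SHISA2 and CCND1 missed the threshold under 7, 5 and 4 of the 12 alternatives, among them library size alone and either GFP-HI library left out.

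The 3 called lower were DUSP5, DUSP4 and DUSP6, phosphatases that inactivate MAP kinases. DUSP5 was at 4.12 and 3.92 CPM in GFP-HI versus 24.3 and 34.7 CPM in GFP-NEG, and fell by 2.89 in log2 terms (edgeR, adjusted p of 5.7e-05). DUSP6, a widely used readout of FGF receptor activity, was at 41.3 and 31.3 CPM in GFP-HI versus 175 and 78.4 CPM in GFP-NEG, and fell by 1.81 (adjusted p of 0.0043). DUSP4 fell by 1.97, but missed the threshold without GFP-HI replicate 1 (-1.55, adjusted p of 0.12) and without GFP-NEG replicate 2 (adjusted p of 0.098). These phosphatases also respond to other signals and are not specific to FGFs. Whether FGF signalling set the level of any feedback or target gene, called higher or lower, was not tested.

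SPRY1 and ETV4 had log2 fold changes of 1.07 and 2.63 and passed with the replicate block (adjusted p of 0.041 and 0.033) but not without it (0.16 and 0.065). ETV5, a close relative of ETV4, had a value of 0.15. Without GFP-NEG replicate 1 the list had 10 genes called higher, beside 7.62% of all genes tested in that fit, and without GFP-NEG replicate 2 it had 0, beside 1.23%. Without GFP-NEG replicate 2, ETV1 had a value of 0.64, SHISA2 0.72, CCND1 0.96, SPRED1 1.41, SPRY2 1.66 and IL17RD 1.45, and none of these passed. SPRY2 also missed it without GFP-HI replicate 2, and IL17RD without GFP-HI replicate 1. DUSP5 passed under each of the 12 alternatives, and DUSP6 missed the threshold without GFP-NEG replicate 1 (-1.07, adjusted p of 0.23) and without either GFP-HI library.

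**Figure D5:**
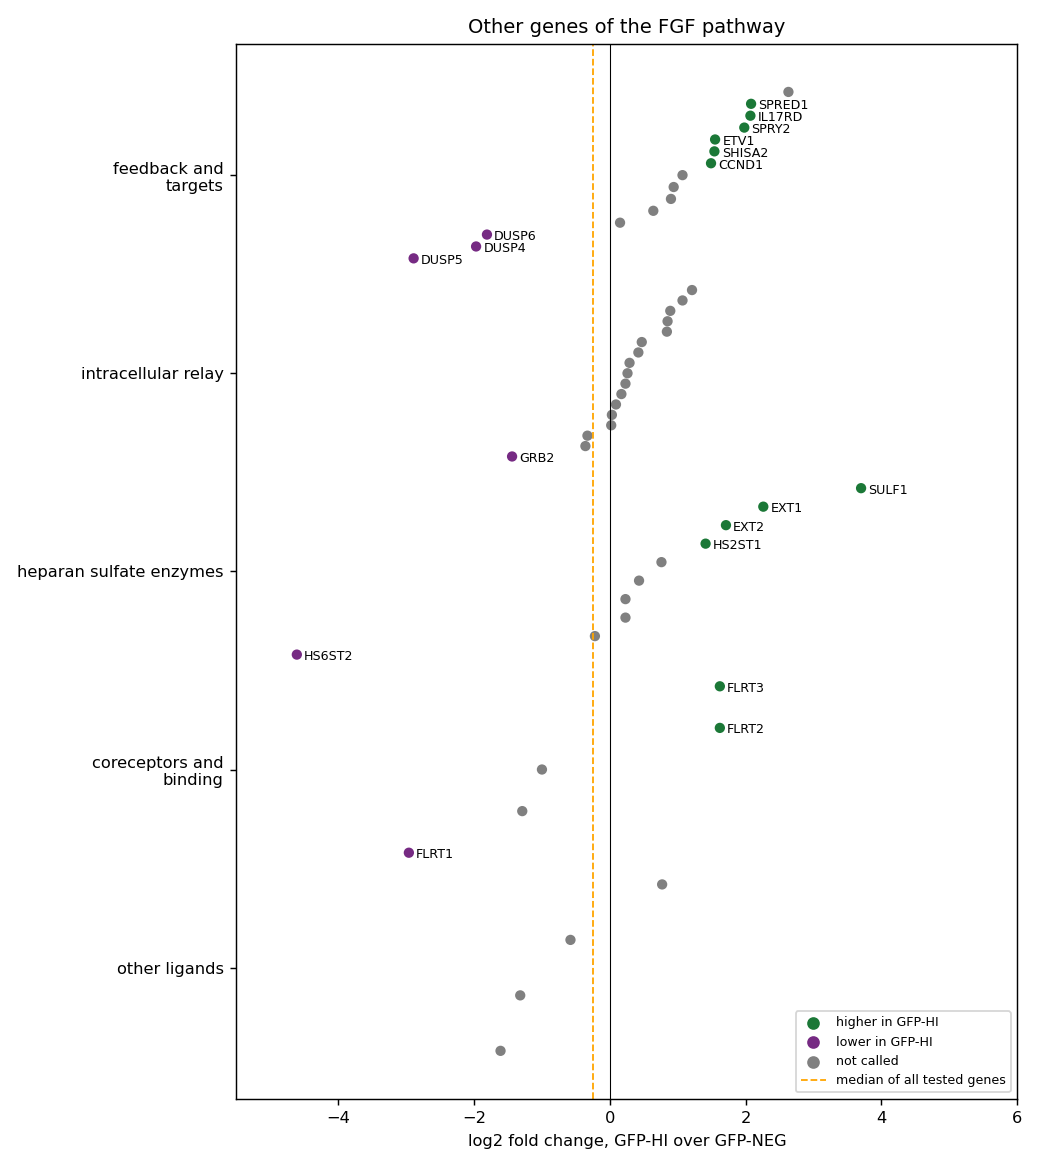
Log2 fold change (GFP-HI over GFP-NEG) of the tested genes of the 5 FGF pathway lists, 1 point per gene, without FGF6, which had 0 counts in GFP-HI. Green genes were called higher and purple genes lower in GFP-HI; SULF1 is at 3.70, the relay genes run from -1.44 to 1.21, and the DUSP phosphatases lie below -1.8.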

How the data were processed

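RNA of 4 libraries of sorted pig lung cells was sequenced, 2 in each group. The authors deposited raw counts per gene (featureCounts, Subread 1.5.2 and DESeq2 1.37.6 are named, per the submitters' processing notes, with no role). The name of the authors' comparison table carries the numbers 11.1 and 105 after the word annotated, with no build or release spelled out. Strand setting and filters are not given in the sources used here, and overlapping genes are uncertain. The authors' deposited comparison table holds log2 fold changes, a test score, p-values, counts identical to the single tables, and 4 normalized columns (a linear signal, not used, because 2 of them hold the counts of a library other than that in their heading). In all, 834 identifiers were renamed from a gene name table.

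Counts were scaled with TMM, filtered with filterByExpr (19682 genes) and tested with edgeR 4.0.16 (quasi-likelihood, R 4.3.3). The prior degrees of freedom were infinite, so that the test used the trended spread and a gene's own scatter carried little weight. CPM are counts divided by library total and TMM factor, and 1 count was worth 0.0453 to 0.155 CPM. The log2 fold change over the square root of F gave its standard error. The procedure was tested on simulated data. Alternatives were RLE, upper-quartile and library-size scaling, 2 other filters, DESeq2 1.42.0, the replicate block, each library left out, and GFP-HI thinned to the GFP-NEG depth. Headings in the deposited table speak of pigs 1 and 2, each with both fractions, but 2 of these headings stand over another library's counts. Whether equal replicate numbers are 1 animal is therefore uncertain. The main fit used the group alone, and only the replicate block took equal numbers as 1 animal. Deviations from the group means correlated with r = 0.160 across genes between libraries of equal number.

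Members and lists were chosen with earlier results of these data known. Named were all members, up to 4 called genes with the largest change in each list and direction, and the 3 genes nearest to the members with the highest and the lowest fold change; others named with their list were chosen after their values were seen.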

Additional observations from a re-analysis of the deposited data

How the results depend on the processing

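FGF10 stayed called higher, and FGF1, FGF9, FGF18 and FGFR3 stayed lower and not called, under each alternative that gave a value (FGF9 was not tested at a minimum of 1 CPM in 2 libraries or after thinning). FGFR2 was not past the threshold under upper-quartile scaling (1.22), library size alone (1.13), the 1 CPM filter (1.43), DESeq2 (1.46) or thinned GFP-HI counts (1.14). The replicate block brought FGF2 (1.47) and FGFR4 (1.86) past it and changed no other member's call. With single libraries left out, where the lone library of a group is assumed to vary like the others, log2 fold changes ranged from 0.65 to 2.35 for FGF2, 2.15 to 3.92 for FGFR1, 0.74 to 2.83 for FGFR2 and -0.04 to 4.13 for FGFR4, which reversed at -0.04 without GFP-NEG replicate 2. The cause was not tested.

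Over all genes, 1643 were higher and 5433 lower. Higher genes numbered 1083 under upper-quartile scaling and 888 under library size alone, and lower genes 3611 after thinning. With single libraries left out, 216 to 1635 were higher and 1575 to 4999 lower. The median of all genes was -0.25, and -0.58 with upper-quartile and -0.68 with library-size scaling, -1.21 with no filter, -1.3 under DESeq2 and 0.03 without GFP-NEG replicate 2; these last 3 cover other sets of genes.

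For the lists, the other FGF genes had 2 called lower with no filter and under DESeq2, and 0 with the 1 CPM filter and after thinning, where FGF6 was not tested. This number also changed with libraries left out. Co-receptors had 1 called higher under upper-quartile scaling, the 1 CPM filter, DESeq2 and thinning, 0 under library size alone and 0 to 2 with libraries left out; 0 were called lower with the block and 0 to 1 with libraries left out. Heparan sulfate enzymes had 0 called lower with the 1 CPM filter, the block and thinning, and with libraries left out 1 to 4 higher and 0 to 1 lower. The relay had 1 called higher with the block, and with libraries left out 0 to 1 higher and 0 lower. Feedback genes had 3 called higher under library size alone, and with libraries left out 0 to 10 higher and 1 to 2 lower. HS6ST2, the heparan sulfate gene called lower, was not tested with the 1 CPM filter or after thinning. With 2 libraries in each group and 6292253 to 7045652 counts in GFP-NEG, the few counts of FGF9 and FGF18 allow no firm statement.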

Other observations

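The genes nearest to FGFR4 over the 4 libraries, a search added after its values were seen, were MT1A, RASL12 and LIPG (distances 0.152, 0.241 and 0.32). RASL12 was at 118 and 57.5 CPM in GFP-HI, 95.8 CPM in GFP-NEG replicate 1 and 4.99 CPM in GFP-NEG replicate 2. LIPG, an endothelial lipase gene, was at 126 and 36.9 CPM in GFP-HI and at 81.7 and 4.67 CPM in GFP-NEG. These genes were picked for this pattern, so their values are a description.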
